A study of Mus musculus with 16 samples.

Results

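Interferon response genes are the genes that cells switch on when interferons, the cytokines of antiviral defence, bind their receptors. A set of 37 such genes, chosen by symbol from a list, was measured in the lactating mammary gland of mice, out of 22196 genes summed from the transcript tables. Of the 37 genes, 35 passed the filter on low counts and entered tests across 12506 genes. RNA came from the whole inguinal mammary gland in mid-lactation, with an age label of postnatal day 16 on every library. The labels cross diet with treatment in 4 groups of 4 libraries: HFD (a high fat diet in lactation) with metformin, HFD control, NCD with metformin and NCD control. Metformin is a drug that lowers blood glucose, and the labels give no dose or route for it and do not expand NCD. The labels name no strain, genotype or sex, so none is given here. Nothing in them ties each library to its own animal, so the p-values describe the spread among libraries and may be technical in part. In a whole gland, fewer cells of a type and less RNA per cell cannot be told apart.

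Type I interferons activate receptor kinases such as JAK1, and the transcription factor ISGF3, which contains STAT2 and IRF9, then forms and enters the nucleus. ISGF3 binds the interferon-stimulated response element (ISRE) of its target genes, whereas interferon gamma acts through gamma-activated sites. The induced genes encode RNA sensors, enzymes that degrade or block viral RNA, the ubiquitin-like modifier ISG15, and GTPases that act on the vacuoles of intracellular pathogens. Many are transcribed at a low basal level without infection.

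The promoters of the members that the results turn on are shown with matches to these elements. RefSeq promoters (GRCm38.p6, 250 bases before to 50 bases after a start site) matched 29 of the 37 genes. The ISRE core was searched on both strands as GAAA repeated after any 2 bases, and the gamma-activated site as TTCNNNGAA, which reads alike on both strands. No overlap between matches of the motifs was removed. The ISRE core was present in a promoter of 16 of the 29 genes (55.2%), against 1079 of 27025 genes with a RefSeq promoter (3.99%). The gamma-activated site was present in 9 of the 29 (31.0%), against 2582 of 27025 (9.55%). A match is a description of letters and not a binding site. The genes listed without a promoter were Parp9, Parp14, Rtp4, Oas2, Mx2, Dhx58, Mx1 and Usp18. Promoters are printed for Irf9 and Isg20, which passed a test below, and for Irf2 and Stat2, each of which had the lowest p-value of the members in a comparison. All are on the plus strand, and capitals mark the matches. The Irf9 window (chr14:55603735-55604034) held neither set of letters. It lies inside the annotated gene, which starts at 55603571, so the bases before that start were not searched. The Isg20 window (chr7:78913174-78913473) held a gamma-activated site. The Irf2 window (chr8:46739495-46739794) held an ISRE core followed by a gamma-activated site, and the Stat2 window (chr10:128270248-128270547) held an ISRE core on the opposite strand. For Irf9 and Isg20, which have 2 and 3 promoters listed, the window farthest upstream is shown.
Irf9: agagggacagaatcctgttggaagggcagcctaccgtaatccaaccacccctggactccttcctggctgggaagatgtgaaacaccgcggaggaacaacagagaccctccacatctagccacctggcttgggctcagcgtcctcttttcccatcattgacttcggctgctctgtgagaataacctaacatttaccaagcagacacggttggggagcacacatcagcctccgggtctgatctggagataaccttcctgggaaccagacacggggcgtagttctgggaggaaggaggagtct
Isg20: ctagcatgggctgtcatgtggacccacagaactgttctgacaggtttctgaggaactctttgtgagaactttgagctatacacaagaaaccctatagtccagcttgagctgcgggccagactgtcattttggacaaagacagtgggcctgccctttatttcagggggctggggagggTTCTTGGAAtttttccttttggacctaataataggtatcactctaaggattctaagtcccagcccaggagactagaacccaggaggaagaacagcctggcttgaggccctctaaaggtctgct
Irf2: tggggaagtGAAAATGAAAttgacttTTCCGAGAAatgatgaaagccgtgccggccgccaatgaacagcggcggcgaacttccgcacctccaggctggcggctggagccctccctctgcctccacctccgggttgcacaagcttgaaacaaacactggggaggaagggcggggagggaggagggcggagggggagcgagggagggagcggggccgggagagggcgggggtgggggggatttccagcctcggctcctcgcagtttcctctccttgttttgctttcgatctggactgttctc
Stat2: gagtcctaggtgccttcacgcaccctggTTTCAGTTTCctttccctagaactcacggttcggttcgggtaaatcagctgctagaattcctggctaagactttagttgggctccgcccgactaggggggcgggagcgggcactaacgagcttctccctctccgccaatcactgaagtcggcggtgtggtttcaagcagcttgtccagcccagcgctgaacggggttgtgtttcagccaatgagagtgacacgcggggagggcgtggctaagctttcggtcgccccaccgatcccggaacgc

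Libraries held 8649316 to 39156617 counts over genes, with a median of 28944266, and the shallowest were HFD control 4 and HFD metformin 1. A count of 0 in a library allows up to 0.0704 to 0.335 CPM (counts relative to library depth, here after TMM scaling), for counting error only. The library NCD control 3 stood apart. Its summed level of 10 skeletal muscle markers was 3470 CPM, against 0.762 to 132 CPM in the other 15 libraries. It also had the highest sums of adipocyte markers (997 CPM), macrophage markers (115 CPM) and T and NK cell markers (5.36 CPM) of the 16 libraries. Luminal and milk-producing epithelial markers summed to 214000 to 349000 CPM over the libraries, in keeping with the labelled tissue. Results that rest on NCD control 3 are given with and without it.

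Most members were expressed at a low level. Levels between genes are compared in TPM, the deposited transcript abundance relative to the effective coding length, as means of 16 libraries. The members' median was 1.23 TPM, against 2.1 TPM for the genes tested, and 13 members lay above the median of tested genes. Isg20, an exonuclease that degrades RNA, was highest at 43.6 TPM. Bst2, encoding tetherin, a membrane protein that holds budding virus particles at the cell surface, followed at 39.8 TPM. The transcription factor Irf3 had 14.2 TPM, Irf1 had 11.6 TPM and Ifi35, a leucine zipper protein induced by interferon, had 10.3 TPM. These were the 5 members over 10 TPM. Irf9 had 7.4 TPM, Irf2 had 6.35 TPM and Parp9 had 3.77 TPM. Several antiviral effectors, unlike Isg20 and Bst2, lay at the other end, and 17 members were under 1 TPM. Among these, Ifit3 had 0.867 TPM, Rsad2 0.656 TPM, Ifit1 0.271 TPM, Mx2 0.178 TPM and Oas3 0.0472 TPM. Isg20 and Bst2 lay within their spread of each other in HFD metformin libraries, at 42.4 ± 9.64 TPM and 37.7 ± 6.09 TPM. In NCD metformin libraries Isg20 was the higher, at 51.9 ± 3.0 TPM, with Bst2 at 40.9 ± 2.88 TPM (SD, n = 4). The order turned in NCD control libraries, at 41.5 ± 5.35 TPM for Isg20 and 44.4 ± 6.18 TPM for Bst2, again within the spread.

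**Figure D1:**
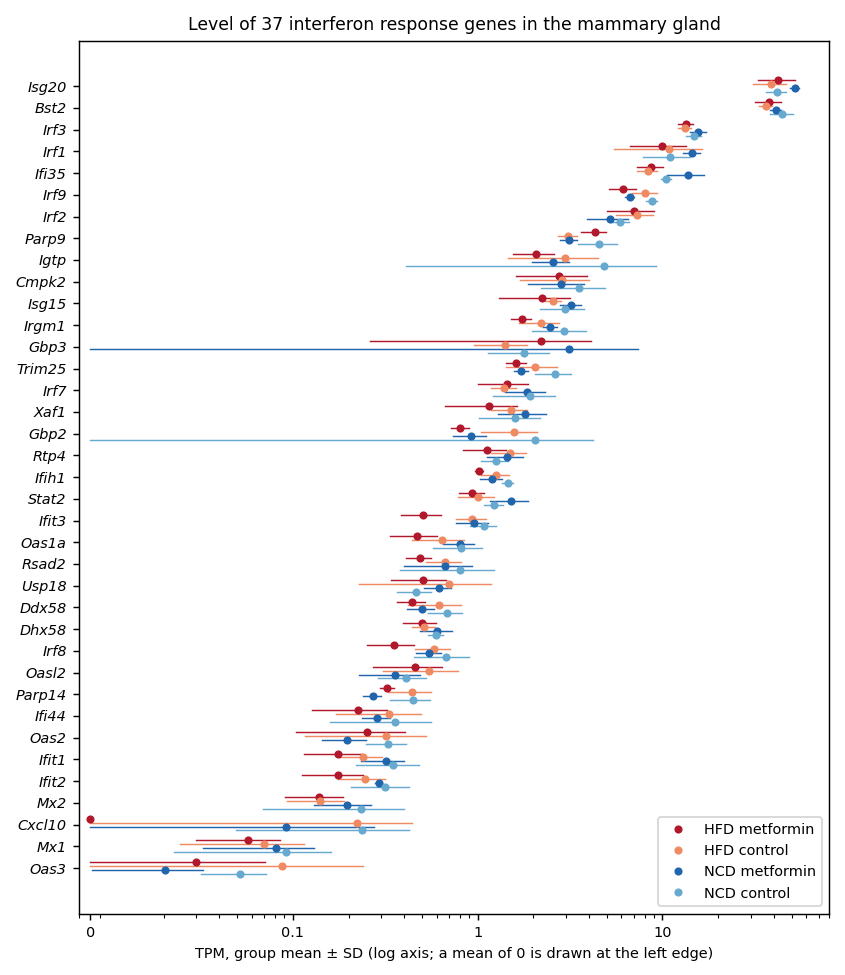
Level of each of the 37 genes in TPM on a log axis, as the mean of 4 libraries (point) with its SD (line, ended at the left edge where it would pass it), in the order of the mean over 16 libraries. Isg20 and Bst2 are highest at 43.6 and 39.8 TPM, and 17 genes have means under 1 TPM.

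Both members outside the tests were nearly silent. Mx1, a dynamin-like GTPase that traps viral nucleocapsids, had 102 counts over all libraries, which were 18, 19, 30 and 35 counts in the HFD metformin, HFD control, NCD metformin and NCD control groups. Cxcl10, a chemokine that attracts T cells, had 13 counts in all. These were 0 counts in the HFD metformin group, 5 in HFD control, 3 in NCD metformin and 5 in NCD control.

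Few members responded to metformin, and none to diet, as judged by edgeR (quasi-likelihood, Benjamini-Hochberg over all 12506 genes, adjusted p under 0.05). With metformin on NCD, Isg20 rose and Irf9 fell, so 2 of 35 members were called, where 10% of all tested genes were called. Averaged over the diets, Isg20 rose and Irf9 and Parp14 fell, and 11.4% of all tested genes were called. By edgeR the called members were thus 2 of 35 and 3 of 35, no larger a share than among all genes. DESeq2 called more, with 7 of 35 members on NCD and 5 averaged over diets, where it called 1795 and 1949 of all genes. Shares of all genes were not worked out for these DESeq2 calls, so the statement on shares covers edgeR only. With metformin on HFD no member was called by edgeR (0.168% of all genes), 4 had an unadjusted p under 0.05 (12.8% of all genes), and DESeq2 called 0 (1.61%). The controls of the averaged comparison are those of the comparisons on each diet.

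The HFD comparisons called no member with edgeR. On control treatment, HFD against NCD called 0 members with edgeR (0.0640% of all genes), 2 members had an unadjusted p under 0.05 (7.04% of all genes), and DESeq2 called 0 (0.621%). With metformin, HFD against NCD called 0 members with edgeR (2.36% of all genes), 5 had an unadjusted p under 0.05 (19.2% of all genes), and DESeq2 called 1 (7.20%). Averaged over treatments, HFD called 0 members with edgeR (0.936% of all genes), 6 had an unadjusted p under 0.05 (17.4% of all genes), and DESeq2 called 1 (3.78%). For the interaction, which asks whether the metformin response differed between diets, 0 members and 0 of all genes were called by edgeR (0%). Of the members 0 had an unadjusted p under 0.05 there (9.94% of all genes), and DESeq2 called 0 (0.221%).

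The members' fold changes were small. The median log2 fold change was -0.17 for metformin on HFD, with 23 of 35 members negative, and -0.11 for metformin on NCD, with 22 of 35 negative. For HFD it was -0.13 with metformin (25 of 35 negative) and -0.09 on control treatment (22 of 35 negative). Medians over all tested genes were between -0.01 and 0.01, with 48.3 to 51.2% of genes negative over the 7 comparisons. The sign of the NCD median rested on NCD control 3. Without that library the median for metformin on NCD was 0.11, with 14 of 35 members negative, and for HFD on control treatment 0.04, with 14 of 35 negative. The median interaction was -0.11 with that library (18 of 35 negative) and -0.26 without it (26 of 35), and it was 0.03 without NCD control 1 (16 of 35). Averaged over diets, the median for metformin was -0.14 with it and -0.04 without it. HFD metformin 3 moved the medians that use it. Without it, the median for HFD with metformin was -0.29 (29 of 35 negative), that for metformin on HFD was -0.24 (27 of 35) and that for metformin averaged was -0.21. The median for HFD with metformin was also -0.20 without NCD metformin 4. Over fits without 1 library each, the median ran between -0.21 and 0.11 for metformin on NCD, -0.24 and -0.12 for metformin on HFD, -0.13 and 0.04 for HFD on control treatment, and -0.29 and -0.09 for HFD with metformin. Scaled by library size only, the median of all genes moved to -0.16 for HFD on control treatment and to -0.18 for HFD with metformin. On that scale 31 and 32 of 35 members were negative, and their medians of -0.25 and -0.29 are to be read against that shift.

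**Figure D2:**
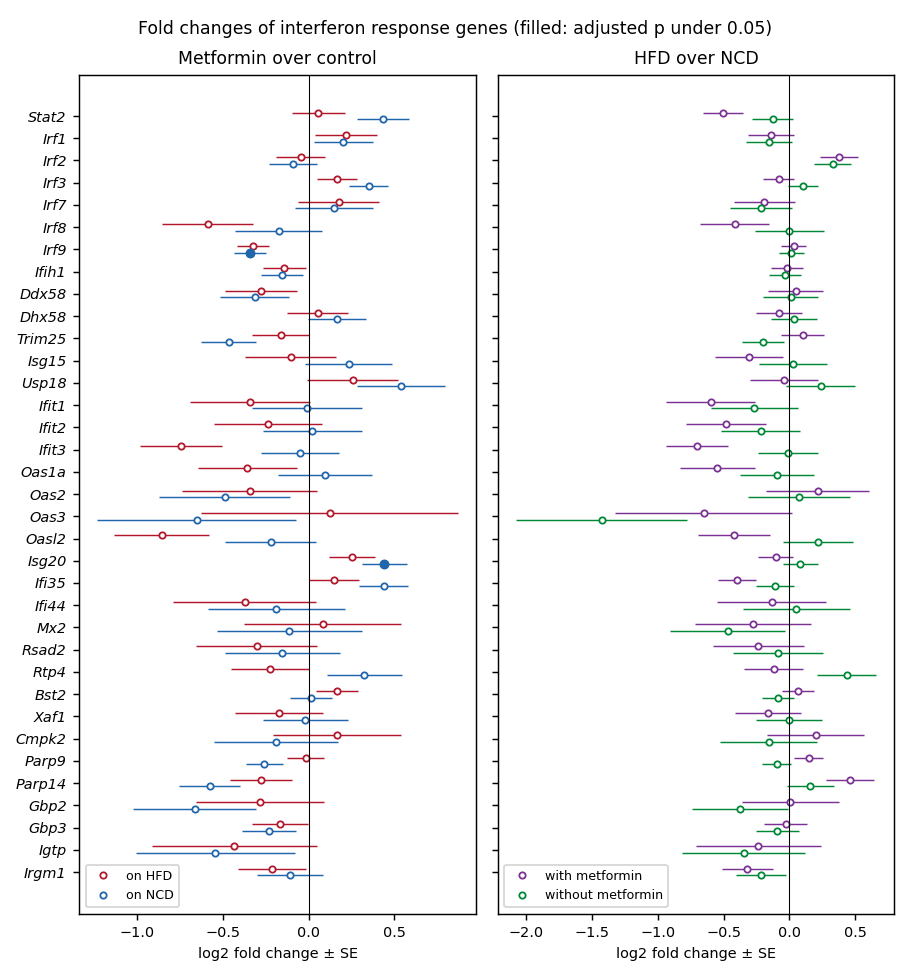
Log2 fold change (point) with its SE (line) of the 35 tested members, for metformin over control on each diet (left) and for HFD over NCD with and without metformin (right). Filled points passed the threshold, which are Isg20 (0.44) and Irf9 (-0.34) for metformin on NCD.

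Among 16 libraries, NCD control 3 was the highest for 12 of the 35 members, whereas 6.59% of all tested genes were highest there. HFD metformin 1, the second shallowest library, was the lowest for 10 of 35 members, against 7.69% of all tested genes. The mean over members of log2(CPM + 0.5) was lowest in HFD metformin 1 at 1.95 and highest in NCD control 3 at 2.56, and the other libraries lay in between. The 12 members highest in NCD control 3 were Igtp, Gbp2, Gbp3, Irgm1, Irf7, Mx2, Ifit1, Ifih1, Oas1a, Oas3, Rsad2 and Xaf1.

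**Figure D3:**
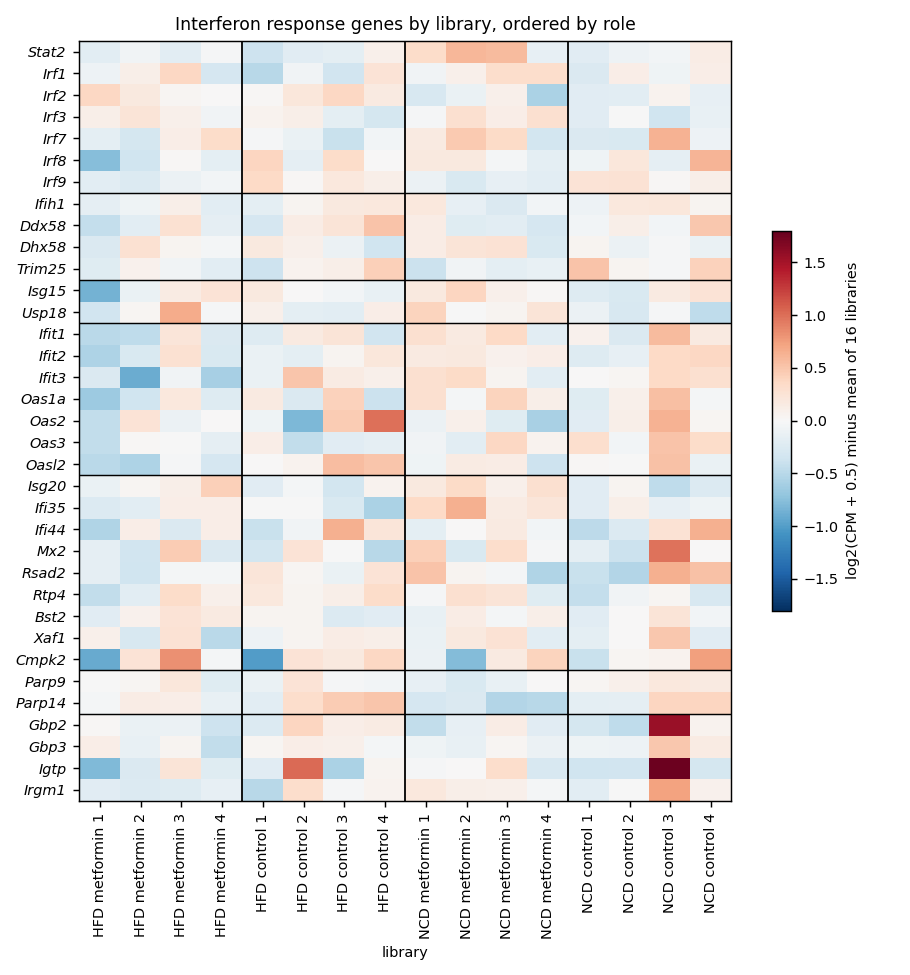
Log2(CPM + 0.5) of the 35 tested members in each of 16 libraries (columns, 4 per group), as the difference from the gene's mean over libraries, with horizontal lines between roles. NCD control 3 is the darkest column for Igtp and Gbp2, which had 22.3 and 14.4 CPM there.

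The lowest adjusted p-value among the members, in any of the 7 comparisons, was that of Irf9, the DNA-binding subunit of ISGF3 (ENSMUSG00000002325.15, chromosome 14 from 55603571 to 55610030 on GRCm38). Irf9 had 19.7, 18.9, 20.8 and 21.7 CPM in HFD metformin libraries, against 28.9, 22.8, 25.8 and 24.1 CPM in HFD control libraries. It had 20.9, 18.5, 20.3 and 19.6 CPM in NCD metformin libraries, against 26.7, 27, 22.8 and 24.1 CPM in NCD control libraries. All 8 metformin libraries lay below all 8 control libraries, a separation in the lower direction that 0.320% of all tested genes had. Averaged over diets, Irf9 fell by 0.34 ± 0.07 on the log2 scale (SE, adjusted p = 0.00707, edgeR). It fell by 0.34 ± 0.09 on NCD (adjusted p = 0.0322, edgeR), and the log2 fold change on HFD was -0.33 ± 0.09 without passing the test (adjusted p = 0.164, edgeR). The interaction for Irf9 was 0.02 ± 0.13 (adjusted p = 0.983, edgeR). HFD had log2 fold changes of 0.03 and 0.01 on Irf9, with and without metformin.

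The Irf9 difference was present on either side of a gap in the numbers of the sample titles, which run to 10 and again from 14. Up to 10, Irf9 averaged 19.7 ± 1.2 CPM in 3 metformin libraries and 26.3 ± 2.54 CPM in 4 control libraries. From 14, it averaged 20.3 ± 1.05 CPM in 5 metformin libraries and 24.2 ± 1.22 CPM in 4 control libraries (SD). The groups did not overlap in either range, which the separation of all metformin from all control libraries given above had already fixed. The averaged Irf9 call was kept in 21 of 22 alternatives and ended in counts rebuilt from TPM, where the log2 fold change was -0.26 (adjusted p = 0.058, edgeR; range over alternatives 8.68e-05 to 0.058). The NCD call ended in 7 of 23 alternatives, among them each fit without the first or second NCD control library or without NCD metformin 2 or 3, with adjusted p up to 0.181 (edgeR).

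Salmon's estimates divide Irf9 among annotated coding transcripts. ENSMUST00000138037.1 had 2.53 ± 0.24 TPM in HFD metformin libraries and 5.26 ± 0.48 TPM in HFD control libraries. It had 2.83 ± 0.43 TPM in NCD metformin libraries and 4.94 ± 0.69 TPM in NCD control libraries (SD, n = 4). ENSMUST00000134863.7 averaged 1.22 TPM in HFD metformin, 2.31 in HFD control, 1.78 in NCD metformin and 2.53 in NCD control libraries. ENSMUST00000130697.7 ran the other way on HFD, with 1.97 ± 0.98 TPM in HFD metformin libraries and a listing at 0 in all 4 HFD control libraries. On NCD its means were 1.68 TPM with metformin and 1.26 TPM in controls, where it was listed at 0 in NCD control 2. These transcripts share most of their sequence, so their split is an estimate and was not tested.

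Stat2, the partner of Irf9 in ISGF3 (ENSMUSG00000040033.16), did not follow Irf9. Stat2 had 7.85, 8.62, 7.87 and 8.94 CPM in HFD metformin libraries, against 6.87, 7.81, 8.0 and 9.71 CPM in HFD control libraries. It had 11.5, 14, 13.7 and 8.14 CPM in NCD metformin libraries, against 7.79, 8.46, 8.73 and 10 CPM in NCD control libraries. Thus 3 of the 4 NCD metformin libraries were above every other library and NCD metformin 4 was not. Metformin on NCD gave Stat2 a log2 fold change of 0.44 ± 0.15 (SE, adjusted p = 0.074, edgeR), and for HFD against NCD with metformin -0.51 ± 0.15 (adjusted p = 0.0855, edgeR). Neither passed. Without NCD metformin 4, Stat2 passed for metformin on NCD (0.57, adjusted p = 0.0154, edgeR), for metformin averaged over diets (0.31, adjusted p = 0.0322, edgeR) and for HFD with metformin (-0.65, adjusted p = 0.0235, edgeR). In that fit it also passed for HFD averaged over treatments (-0.39, adjusted p = 0.0381, edgeR). Scaled by library size only, Stat2 passed for HFD with metformin (adjusted p = 0.0317, edgeR) and for HFD averaged (adjusted p = 0.0176, edgeR). The medians of all genes were then -0.18 and -0.17. DESeq2 called Stat2 on all 16 libraries for metformin on NCD (adjusted p = 0.0468) and for HFD with metformin (adjusted p = 0.0345). Endothelial markers summed to 93.2, 117, 130 and 78.4 CPM in NCD metformin libraries and 64.2 to 88.5 CPM in NCD control libraries, and their part in the Stat2 values was not tested. These comparisons share the NCD metformin libraries.

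**Figure D4:**
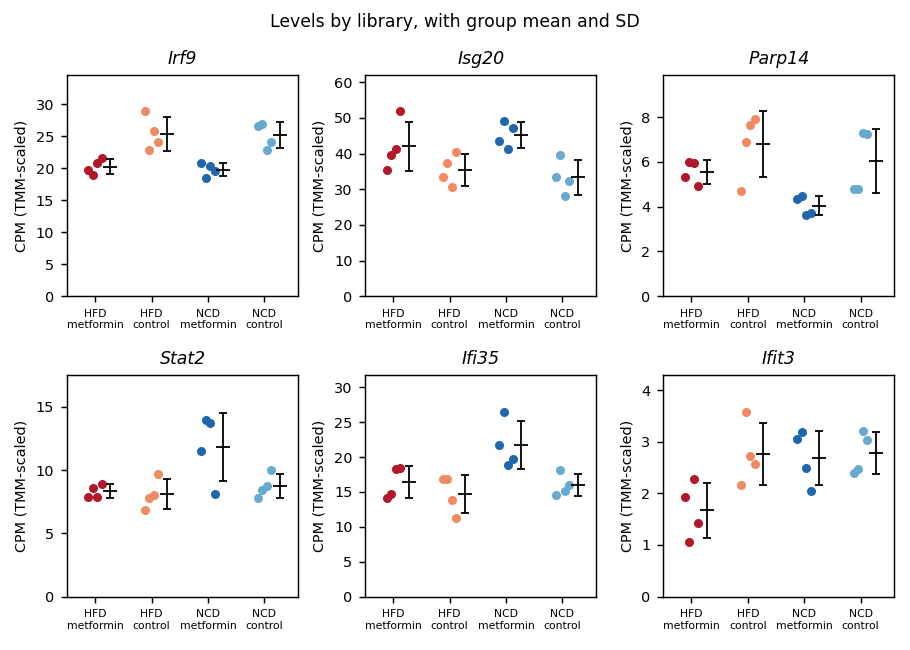
CPM of 6 members in each library (points) with the group mean and SD (bars, n = 4). The Irf9 panel shows every metformin library (18.5 to 21.7 CPM) below every control library (22.8 to 28.9 CPM), and the Stat2 panel 3 NCD metformin libraries at 11.5 to 14 CPM.

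Of the other interferon regulatory factors none passed the edgeR test on all 16 libraries. Irf3, which switches on interferon genes after nucleic acid sensing, came nearest. Irf3 had 32.5, 35.6, 32.3 and 28.8 CPM in HFD metformin libraries, against 31.5, 32.7, 26.6 and 24.1 CPM in HFD control libraries. It had 29.7, 36.9, 33.0 and 37 CPM in NCD metformin libraries, against 26.2, 30.2, 23.4 and 27.4 CPM in NCD control libraries. The groups overlapped on both diets. Averaged over diets the log2 fold change of Irf3 was 0.26 ± 0.08 (SE, adjusted p = 0.0529, edgeR), and on NCD 0.35 ± 0.12 (adjusted p = 0.0644, edgeR). The averaged value passed in 5 of 22 alternatives, DESeq2 among them (adjusted p = 0.0241). On NCD it passed in 1 of 23, which was DESeq2 (adjusted p = 0.0279).

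Irf2, known as an antagonist of Irf1, had its largest difference by diet. Irf2 had 10.8, 9.39, 8.46 and 8.25 CPM in HFD metformin libraries, against 6.67, 7.49, 8.82 and 5.37 CPM in NCD metformin libraries. It had 8.34, 9.52, 10.8 and 9.27 CPM in HFD control libraries, against 7.04, 7.16, 8.57 and 7.4 CPM in NCD control libraries. A single NCD library overlapped the HFD libraries in each pair. Averaged over treatments the log2 fold change was 0.35 ± 0.10 (SE, adjusted p = 0.0938, edgeR), not called. It was 0.19 scaled by library size only and 0.54 in counts rebuilt from TPM, neither called, and DESeq2 called it (0.35, adjusted p = 0.0393).

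Irf8, a factor of myeloid cell development, had 0.769, 1.19, 1.7 and 1.42 CPM in HFD metformin libraries, against 2.33, 1.44, 2.21 and 1.67 CPM in HFD control libraries. Its groups overlapped, and the log2 fold change for metformin on HFD was -0.59 ± 0.27 (SE, adjusted p = 0.371, edgeR). On NCD it was -0.18 ± 0.25. Macrophage markers, which Irf8-expressing cells can carry, are given with the cell markers below. Irf1, an activator induced by interferon gamma, ranged from 5.98 to 11.3 CPM over the libraries, with log2 fold changes of 0.22 for metformin on HFD and 0.20 on NCD. Irf7, the regulator of interferon alpha genes, ranged from 4.02 to 8.67 CPM, with 8.67 CPM in NCD control 3 and 4.46 to 5.1 CPM in the others of its group.

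Isg20 (ENSMUSG00000039236.18, chromosome 7 from 78913424 to 78920396 on GRCm38) was the member called higher. Isg20 had 35.5, 39.5, 41.3 and 51.8 CPM in HFD metformin libraries, against 33.3, 37.4, 30.5 and 40.4 CPM in HFD control libraries. It had 43.5, 49.2, 41.2 and 47.2 CPM in NCD metformin libraries, against 33.3, 39.7, 28.0 and 32.3 CPM in NCD control libraries. The NCD groups did not overlap and the HFD groups did. Isg20 rose by 0.44 ± 0.13 on the log2 scale on NCD (SE, adjusted p = 0.0439, edgeR) and by 0.35 ± 0.09 averaged over diets (adjusted p = 0.0279, edgeR), with 8 of 8 metformin libraries above the control mean. On HFD the log2 fold change was 0.25 ± 0.13 (adjusted p = 0.443, edgeR), and the interaction was -0.19 ± 0.19 (adjusted p = 0.778, edgeR).

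The Isg20 calls were close to the threshold. The NCD call ended in 15 of 23 alternatives, with adjusted p up to 0.129 (edgeR) and log2 fold changes from 0.36, without NCD control 3, to 0.53, without NCD control 2. The averaged call ended in 6 of 22 alternatives, which were scaling by library size only (0.28) and the fits that lacked a control library (NCD control 1, 3 or 4, or HFD control 3) or NCD metformin 2. Within title numbers to 10, Isg20 averaged 42.7 ± 6.87 CPM in 3 metformin libraries and 33.6 ± 4.82 CPM in 4 control libraries. From 14, it averaged 44.2 ± 5.15 CPM in 5 metformin libraries and 35.1 ± 4.58 CPM in 4 control libraries (SD). In both ranges the groups overlapped.

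On NCD the groups of 7 members did not overlap, 3 higher with metformin (8.73% of all genes) and 4 lower (9.82% of all genes). Beside Isg20, the higher members were Ifi35 and Usp18. Ifi35 had 14.2, 14.7, 18.3 and 18.4 CPM in HFD metformin libraries, against 16.8, 16.8, 13.9 and 11.2 CPM in HFD control libraries. It had 21.7, 26.5, 18.8 and 19.7 CPM in NCD metformin libraries, against 14.6, 18.2, 15.1 and 16.0 CPM in NCD control libraries. All 4 NCD metformin libraries lay above the NCD control and the HFD metformin libraries. Metformin on NCD gave Ifi35 a log2 fold change of 0.44 ± 0.14 (SE, adjusted p = 0.0604, edgeR), and that for HFD with metformin was -0.40 ± 0.14 (adjusted p = 0.135, edgeR). The NCD value passed in 3 of 23 alternatives, DESeq2 among them (adjusted p = 0.0271). The value for HFD with metformin passed in 1 of 23, scaling by library size only. DESeq2 also called Ifi35 for metformin averaged over diets (adjusted p = 0.0406). On HFD, 2 members had groups without overlap, both lower with metformin (2.93% of all genes), Irf9 and Oasl2.

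The remaining antiviral effectors did not pass any test. Bst2 ranged from 24.0 to 34.1 CPM and its log2 fold changes for metformin were 0.17 on HFD and 0.01 on NCD. Cmpk2, a mitochondrial nucleotide kinase, varied widely within groups, from 4.77 to 17 CPM among HFD metformin libraries and from 4.4 to 12.3 CPM among HFD control libraries. Rsad2, encoding viperin, ranged from 0.891 to 2.67 CPM, Ifi44 from 0.385 to 1.52 CPM and Xaf1, an antagonist of an apoptosis inhibitor, from 1.02 to 2.48 CPM. Mx2, a relative of Mx1, had 0.692, 0.547, 1.34 and 0.618 CPM in HFD metformin libraries and 0.563, 1.09, 0.822 and 0.447 CPM in HFD control libraries. It had 1.3, 0.602, 1.16 and 0.821 CPM in NCD metformin libraries and 0.693, 0.52, 2.13 and 0.835 CPM in NCD control libraries, where NCD control 3 was the high value. For HFD on control treatment the log2 fold change of Mx2 was -0.47 with that library and 0.13 without it, with no call in either fit.

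Rtp4, a receptor transporter protein induced by interferon, was the member whose control libraries did not overlap between diets, in the higher direction (1.87% of all genes). It had 2.07, 1.83, 1.93 and 2.34 CPM in HFD control libraries, against 1.18, 1.66, 1.81 and 1.34 CPM in NCD control libraries. With metformin it had 1.15, 1.48, 2.33 and 1.89 CPM in HFD libraries, against 1.72, 2.24, 2.14 and 1.43 CPM in NCD libraries, with overlap. The log2 fold change for HFD was 0.44 ± 0.22 on control treatment (SE, adjusted p = 0.77, edgeR) and -0.12 ± 0.22 with metformin (adjusted p = 0.825, edgeR). Neither passed, nor did the interaction of -0.55 ± 0.32 (adjusted p = 0.58, edgeR).

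The RNA sensors were close in level across groups. Ifih1 encodes MDA5 and Ddx58 encodes RIG-I, which detect viral RNA, and Dhx58 encodes their regulator LGP2. Over all libraries Ifih1 ranged from 8.26 to 11.6 CPM, Ddx58 from 2.85 to 5.92 CPM and Dhx58 from 2.34 to 3.89 CPM. Their log2 fold changes for metformin averaged over diets were -0.15, -0.30 and 0.11, with no call. Trim25, a ubiquitin ligase that acts on RIG-I, had 8.54, 10.6, 9.53 and 8.72 CPM in HFD metformin libraries, against 7.59, 10.5, 10.8 and 13.7 CPM in HFD control libraries. It had 7.51, 9.53, 8.82 and 9.08 CPM in NCD metformin libraries, against 14.5, 10.4, 9.87 and 13.5 CPM in NCD control libraries. The NCD groups did not overlap, and the HFD groups did. For metformin on NCD, Trim25 had a log2 fold change of -0.47 ± 0.16 (SE, adjusted p = 0.0729, edgeR), not called, and it was -0.52 (adjusted p = 0.0424, edgeR) with a term for the gap in title numbers. It passed in 3 of 23 alternatives, DESeq2 among them (adjusted p = 0.049).

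The ISG15 system showed no call. Isg15, the modifier itself, ranged from 0.692 CPM in HFD metformin 1 to 2.31 CPM in NCD metformin 2, with log2 fold changes for metformin of -0.11 on HFD and 0.23 on NCD. Usp18, the protease that removes ISG15 and restrains the type I receptor, had 1.87, 1.3, 1.37 and 1.62 CPM in NCD metformin libraries, against 1.18, 0.976, 1.27 and 0.806 CPM in NCD control libraries. These groups did not overlap, and the log2 fold change was 0.54 ± 0.26 (SE, adjusted p = 0.183, edgeR).

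The IFIT proteins bind viral RNA and the OAS enzymes make oligoadenylates that activate RNase L. In these families metformin on HFD had its largest negative fold changes among the members, none called. Ifit3 had 1.92, 1.06, 2.28 and 1.42 CPM in HFD metformin libraries, against 2.17, 3.58, 2.72 and 2.57 CPM in HFD control libraries. It had 3.05, 3.18, 2.49 and 2.04 CPM in NCD metformin libraries, against 2.4, 2.47, 3.21 and 3.04 CPM in NCD control libraries. The HFD metformin group was the low one, with a single library above the lowest HFD control library. The log2 fold change of Ifit3 was -0.74 ± 0.24 for metformin on HFD (SE, adjusted p = 0.205, edgeR) and -0.05 ± 0.23 on NCD, and the interaction was -0.69 ± 0.33 (adjusted p = 0.499, edgeR). For HFD with metformin it was -0.70 ± 0.24 (adjusted p = 0.113, edgeR), a comparison that shares the HFD metformin libraries.

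Oasl2, a relative of the OAS enzymes, had 0.769, 0.708, 1.25 and 0.945 CPM in HFD metformin libraries, against 1.29, 1.35, 2.12 and 2.01 CPM in HFD control libraries. It had 1.18, 1.47, 1.44 and 0.868 CPM in NCD metformin libraries, against 1.3, 1.27, 2.06 and 1.13 CPM in NCD control libraries. The HFD groups did not overlap, by a gap of less than the spread within either. The log2 fold change was -0.86 ± 0.28 on HFD (SE, adjusted p = 0.206, edgeR) and -0.22 ± 0.26 on NCD, and -0.08 on HFD in counts rebuilt from TPM. Averaged over diets it was -0.54 ± 0.19 (adjusted p = 0.0744, edgeR).

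The other genes of these families were at low counts. Oas1a had 0.846, 1.16, 1.92 and 1.31 CPM in HFD metformin libraries, against 2.1, 1.57, 2.32 and 1.78 CPM in NCD metformin libraries, and the groups overlapped (log2 fold change -0.55 ± 0.28, adjusted p = 0.306, edgeR). Ifit1 ranged from 0.461 to 1.49 CPM, Ifit2 from 0.385 to 1.19 CPM and Oas2 from 0.611 to 3.35 CPM. Oas3 had 0.241, 0, 0.0949 and 0.112 CPM in HFD control libraries, against 0.346, 0.163, 0.476 and 0.358 CPM in NCD control libraries, which is near the level that a count of 0 allows. The fitted log2 fold change of Oas3 for HFD on control treatment was -1.43 ± 0.65 (adjusted p = 0.681, edgeR), and it was 0.38 in counts rebuilt from TPM. Ifit3 has a close copy, Ifit3b, and Oas1a belongs to a cluster of similar genes, so their counts are uncertain where reads are shared.

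Both members of the PARP family, which attach ADP-ribose to proteins, were lower with metformin on NCD without overlap between groups. Parp14 (ENSMUSG00000034422.14, chromosome 16 from 35832874 to 35871544 on GRCm38) had 5.31, 6.01, 5.95 and 4.91 CPM in HFD metformin libraries, against 4.72, 6.9, 7.65 and 7.93 CPM in HFD control libraries. It had 4.35, 4.48, 3.62 and 3.73 CPM in NCD metformin libraries, against 4.79, 4.81, 7.27 and 7.25 CPM in NCD control libraries. HFD control 1 was the control library that overlapped the metformin libraries of its diet. Parp14 fell by 0.43 ± 0.13 on the log2 scale averaged over diets (SE, adjusted p = 0.0404, edgeR). On NCD the log2 fold change was -0.58 ± 0.18 (adjusted p = 0.0503, edgeR) and on HFD -0.28 ± 0.18 (adjusted p = 0.552, edgeR), neither called. The NCD value passed in 6 of 23 alternatives, DESeq2 among them (adjusted p = 0.0291).

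The averaged Parp14 call ended in 13 of 22 alternatives. These were testing with no filter on low counts and leaving out any 1 of 12 libraries. Over all 22 alternatives, adjusted p ran from 0.0139, without HFD control 1, to 0.0831 (edgeR at both ends). Up to title number 10, Parp14 averaged 4.71 ± 0.521 CPM in 3 metformin libraries and 5.4 ± 1.25 CPM in 4 control libraries, with overlap. From 14, it averaged 4.84 ± 1.16 CPM in 5 metformin libraries and 7.43 ± 0.452 CPM in 4 control libraries (SD), without overlap. For HFD with metformin, the Parp14 groups did not overlap in the higher direction (6.19% of all genes), with a log2 fold change of 0.46 ± 0.18 (SE, adjusted p = 0.171, edgeR). Parp9, which works with the ubiquitin ligase DTX3L, had 14.9, 13.6, 15 and 16.7 CPM in NCD metformin libraries, against 16.9, 17.7, 19 and 18.5 CPM in NCD control libraries. Its log2 fold change was -0.26 ± 0.11 on NCD (SE, adjusted p = 0.134, edgeR) and -0.02 ± 0.11 on HFD, and the interaction was 0.24 ± 0.15 (adjusted p = 0.631, edgeR). In counts rebuilt from TPM the Parp9 interaction was 1.02, also not called (adjusted p = 0.385, edgeR). A Parp9 transcript of 177 coding bases (ENSMUST00000122870.1) averaged 1.66 TPM in HFD metformin and 0.18 TPM in HFD control libraries. It averaged 0.35 TPM in NCD metformin and 0.97 TPM in NCD control libraries, and its part in that value was not tested.

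The interferon-inducible GTPases, typical targets of interferon gamma that attack pathogen vacuoles, varied widely between libraries. Igtp (also called Irgm3) had 3.38, 5.11, 7.38 and 5.27 CPM in HFD metformin libraries, against 5.34, 13.1, 4.05 and 6.47 CPM in HFD control libraries. It had 6.1, 6.25, 7.84 and 5.02 CPM in NCD metformin libraries, against 4.73, 4.81, 22.3 and 4.92 CPM in NCD control libraries. NCD control 3 and HFD control 2 were the high libraries, and the groups overlapped. The log2 fold change of Igtp for metformin on NCD was -0.55 ± 0.46 (SE) and was 0.38 without NCD control 3. For HFD on control treatment it was -0.35 with that library and 0.57 without it, and no fit called Igtp.

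Gbp2, a guanylate-binding protein, had 4.69, 4.18, 4.25 and 3.42 CPM in HFD metformin libraries, against 3.78, 6.16, 5.03 and 5.14 CPM in HFD control libraries. It had 3.24, 4.11, 5.09 and 3.94 CPM in NCD metformin libraries, against 3.58, 3.22, 14.4 and 4.83 CPM in NCD control libraries. NCD control 3 was again the high library. For metformin on NCD the log2 fold change of Gbp2 was -0.66 ± 0.36 (SE) with it and 0.07 without it. For HFD on control treatment it was -0.38 with it and 0.36 without it, with no call. The muscle, adipocyte, macrophage and T and NK cell marker sums of NCD control 3 were the highest of the 16 libraries, and their part in these values was not tested.

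Irgm1, an immunity-related GTPase that regulates others of its family, had 5.54, 5.4, 5.41 and 5.78 CPM in HFD metformin libraries, against 7.47, 7.02, 6.92 and 6.29 CPM in NCD metformin libraries. These groups did not overlap, as was also true of Ifi35, and 4.01% of all genes were lower without overlap in that comparison. For Irgm1 the log2 fold change was -0.32 ± 0.19 (SE, adjusted p = 0.39, edgeR). Irgm1 had 4.45, 8.21, 6.39 and 6.81 CPM in HFD control libraries and 5.63, 6.41, 11 and 6.86 CPM in NCD control libraries, with overlap. Gbp3 ranged from 2.76 to 5.71 CPM, with 5.71 CPM in NCD control 3. Guanylate-binding proteins and immunity-related GTPases are multigene families, so reads shared with relatives make their counts uncertain.

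**Figure D5:**
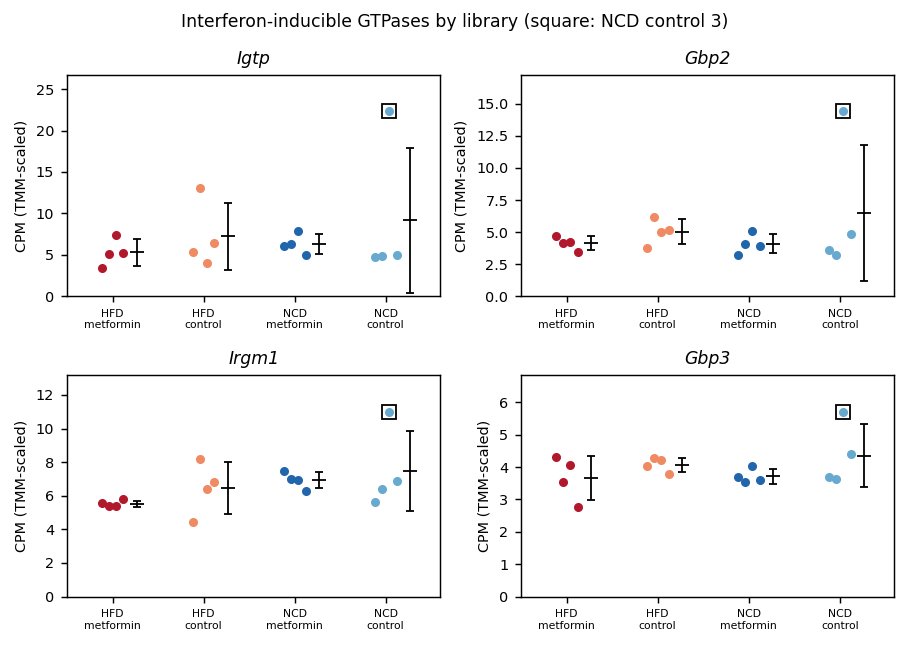
CPM of 4 interferon-inducible GTPases in each library (points) with the group mean and SD (bars, n = 4), where a square marks NCD control 3. That library had 22.3 CPM of Igtp and 14.4 CPM of Gbp2, above all other libraries.

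Upstream of these genes, interferon transcripts were at or near 0. Ifna1, Ifna2, Ifna4, Ifnb1, Ifnk, Ifnl2 and Ifnl3 had 0 counts in every library, Ifng had 1 count in all, and Ifne had 37 counts over 13 libraries. None of the 9 ligands passed the filter. A count of 0 leaves room for a level of up to 0.0704 to 0.335 CPM, depending on the library, and reads of the alpha interferons can be shared among copies.

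Of 9 receptor chains and receptor kinases, 2 fell with metformin on NCD and none rose (10% of all tested genes were called), with a median log2 fold change of -0.36 and 7 of 9 negative. The called genes were Jak1, the kinase shared by all interferon receptors, and Jak2, a kinase of the interferon gamma receptor. Jak1 had 60.9, 52.1, 46.7 and 77.7 CPM in NCD metformin libraries, against 95.5, 102, 96.9 and 109 CPM in NCD control libraries. These groups did not overlap. Jak1 had 137, 97.6, 90.2 and 90.9 CPM in HFD metformin libraries, against 97.9, 102, 107 and 136 CPM in HFD control libraries, with overlap. Jak1 fell by 0.76 ± 0.16 on the log2 scale on NCD (SE, adjusted p = 0.0153, edgeR), a call that ended without NCD metformin 2 (adjusted p = 0.0585, edgeR). With metformin it was higher on HFD than on NCD, by 0.81 ± 0.16 (adjusted p = 0.0322, edgeR), which ended in 6 of 23 alternatives. The interaction of 0.67 ± 0.23 did not pass (adjusted p = 0.379, edgeR). Jak2 averaged 16.6 ± 3.37 CPM in NCD metformin libraries and 25.3 ± 2.39 CPM in NCD control libraries (SD, n = 4) and fell by 0.61 ± 0.17 on the log2 scale (SE, adjusted p = 0.0358, edgeR), which ended in 8 of 23 alternatives.

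Averaged over diets, 2 of 9 receptor chains and kinases fell and none rose (11.4% of all tested genes were called), with a median of -0.33. Ifnar2, a chain of the type I interferon receptor, fell by 0.35 ± 0.08 on the log2 scale (SE, adjusted p = 0.0139, edgeR) with 8 of 8 metformin libraries below the control mean and the call kept in 22 of 22 alternatives. It averaged 9.04 ± 1.51 CPM in HFD metformin, 11.5 ± 1.08 CPM in HFD control, 8.4 ± 0.625 CPM in NCD metformin and 10.8 ± 0.538 CPM in NCD control libraries (SD, n = 4). The other called gene was Jak1 (-0.43, adjusted p = 0.0283, edgeR), a call that ended in 5 of 22 alternatives. With metformin on HFD, none of the 9 was called by edgeR, and 2 had an unadjusted p under 0.05 (12.8% of all genes).

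Among 14 genes of nucleic acid sensing, 13 were tested, and 2 fell with metformin averaged over diets, while none rose, where 11.4% of all tested genes were called (median -0.19, 10 of 13 negative). Tlr7, the endosomal receptor of single-stranded RNA, averaged 0.426 ± 0.173 CPM in HFD metformin libraries and 0.834 ± 0.284 CPM in HFD control libraries. It averaged 0.435 ± 0.0389 CPM in NCD metformin libraries and 0.835 ± 0.176 CPM in NCD control libraries (SD, n = 4). Tlr7 fell by 0.91 ± 0.23 on the log2 scale (SE, adjusted p = 0.0215, edgeR), with 8 of 8 metformin libraries below the control mean and the call kept in 22 of 22 alternatives. Tlr9, the endosomal receptor of unmethylated DNA, fell by 1.06 ± 0.32 (adjusted p = 0.0448, edgeR), a call that ended in 16 of 22 alternatives. Both were at low counts, with 282 counts of Tlr7 and 207 counts of Tlr9 over all libraries. On NCD and on HFD, 0 of the 13 were called by edgeR, with 4 at an unadjusted p under 0.05 for metformin on NCD (27.9% of all genes) and 3 on HFD (12.8%).

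None of the 9 tested genes that restrain interferon signalling, of 10 listed, was called by edgeR for metformin averaged over diets, where 5 had an unadjusted p under 0.05 (28.9% of all genes) and the median was 0.03. Of 50 other interferon-induced genes, 47 were tested, and 1 rose and none fell (11.4% of all tested genes were called), with a median of -0.08 and 29 of 47 negative. The gene that rose was Epsti1, an interferon-induced gene of epithelial and stromal cells. Epsti1 had 3.38, 3.7, 7.25 and 5.56 CPM in HFD metformin libraries, against 3.49, 2.31, 2.97 and 2.79 CPM in HFD control libraries. It had 3.93, 4.45, 4.22 and 4.43 CPM in NCD metformin libraries, against 2.68, 2.41, 3.46 and 2.21 CPM in NCD control libraries. The NCD groups did not overlap, and a single pair of libraries overlapped on HFD. Epsti1 rose by 0.72 ± 0.15 on the log2 scale (SE, adjusted p = 0.00988, edgeR), with 8 of 8 metformin libraries above the control mean and the call kept in 22 of 22 alternatives.

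Markers of several cell types are given beside these results. For metformin averaged over diets, 13 of 14 macrophage markers were negative, with a median log2 fold change of -0.25. Of them 1 was called, where 11.4% of all tested genes were called. Their summed level was 77.7 to 104 CPM in HFD metformin, 88.7 to 109 CPM in HFD control, 78.1 to 104 CPM in NCD metformin and 93.2 to 115 CPM in NCD control libraries. The groups overlapped on both diets. The 9 dendritic cell markers summed to 7.0 to 8.59 CPM in HFD metformin, 7.86 to 11.2 CPM in HFD control, 6.56 to 8.5 CPM in NCD metformin and 8.07 to 9.55 CPM in NCD control libraries. The 13 T and NK cell markers summed to 1.64 to 5.36 CPM over all libraries, and only 3 of them passed the filter. The 7 neutrophil markers summed to 0.671 to 1.19 CPM in HFD metformin, 0.858 to 1.62 CPM in HFD control, 0.61 to 1.3 CPM in NCD metformin and 1.3 to 2.3 CPM in NCD control libraries. Only S100a8 and Csf3r of them were tested, both negative and not called, and Ly6g had 0 counts in all libraries. All 7 fibroblast markers were negative for metformin averaged over diets, 3 of them called (11.4% of all tested genes were called). Their sums were 262 to 315 CPM in HFD metformin, 273 to 496 CPM in HFD control, 216 to 342 CPM in NCD metformin and 337 to 350 CPM in NCD control libraries. Adipocyte markers summed to 239 to 592 CPM in HFD metformin, 215 to 331 CPM in HFD control, 371 to 855 CPM in NCD metformin and 169 to 997 CPM in NCD control libraries. The 997 CPM was that of NCD control 3, and the other NCD control libraries had 169 to 230 CPM. None of the 8 adipocyte markers was called for metformin on either diet or averaged. Of 10 endothelial markers, 9 were positive with metformin on NCD, 1 of them called (10% of all tested genes were called). The part of these cells in the levels of Irf9, Tlr7, Tlr9 and the other members was not tested.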

How the data were processed

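RNA was measured by sequencing in 16 libraries, 4 in each of 4 groups taken from the labels. Per the labels' protocols, a Qiagen RNeasy Mini extraction of whole gland was followed by a directional NEBNext library kit. The authors deposited, per transcript, an expected count (NumReads) and a TPM value, in Salmon's layout per the file headers. Salmon 1.3.0, DESeq2 1.28.1 and GRCm38.p6 are named in the submitters' processing notes, while its strand and bias options are not known here. All 56929 transcripts of the same version in GENCODE M21 were within 3 bases of their coding length, so reads from untranslated regions are not measured.

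Expected counts of 57452 of 58204 transcripts were summed to 22196 genes and rounded, and the other 752 (0.165 to 0.218% of a library's counts) were left out. All 37 symbols matched. No pair of libraries among 120 looked like the same library (lowest chi-square per degree of freedom 13.4). edgeR 4.0.16 (R 4.3.3) fitted 4 group means over all 16 libraries after filterByExpr and TMM, with the quasi-likelihood test and Benjamini-Hochberg adjustment over 12506 genes for 7 contrasts, two-sided, with calls at an adjusted p under 0.05. The procedure was tested on simulated data for metformin on NCD only. The simulated fold changes were larger than those of the called members, so recovery at that size was not tested. Fold changes are on the log2 scale, metformin over control or HFD over NCD. Replicates were numbered in accession order. Pathway and marker lists are described by counts and medians with no set test. The members and lists were chosen with earlier results of these data known. Library values are given for called members and, where fewer than 6 were called in a contrast, for the 6 with the lowest p, and of the pathway lists for called genes. Igtp, Gbp2 and Usp18 fall outside this rule and were described library by library after their values were seen. Alternatives were scaling by library size or by median-ratio size factors, DESeq2 1.42.0, no filter, counts rebuilt from TPM, a term for the gap in title numbers, only the 2 groups compared, and each library left out.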

Additional observations from a re-analysis of the deposited data

Results flagged for a closer look

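Of 140 groups of 4 libraries examined (35 members in 4 groups), 3 held a library far from the others, all NCD control 3 in the NCD control group. It had 22.3 CPM of Igtp, against 4.73 to 4.92 CPM in the other 3 libraries. It had 14.4 CPM of Gbp2, against 3.22 to 4.83 CPM in the others, and 8.67 CPM of Irf7, against 4.46 to 5.1 CPM. Each gap to the nearest library exceeded the 95% critical value for 4 samples. That value flags about 1 in 20 groups by chance where groups are independent. The 3 flags all fell in 1 library, so their number cannot be compared with that rate.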

How the results depend on the processing

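No paired analysis was possible because replicate numbers were given in accession order and pair no libraries across groups. The 2 members called for metformin on NCD became 0 with no filter on low counts, 0 in counts rebuilt from TPM, 7 with DESeq2 and 0 to 4 without 1 library. All genes called there were 1255 in the main fit, 1795 with DESeq2 and 180 to 1461 without 1 library. The 0 came without NCD control 1, NCD metformin 2 or NCD metformin 3, and the 4 without HFD control 4. The 3 called averaged over diets became 5 with DESeq2 and 1 to 5 without 1 library, with 1 without NCD control 3, NCD control 4, NCD metformin 2 or HFD control 3, and 5 without HFD control 1. All genes called for that comparison were 1424 in the main fit, 1949 with DESeq2 and 711 to 1505 without 1 library. The 0 called for HFD with metformin became 3 with library size only, 1 with DESeq2 and 0 to 1 without 1 library (1 without NCD metformin 4). Here all genes called were 295 in the main fit, 774 with DESeq2 and 3 to 384 without 1 library. The 0 called for HFD averaged over treatments became 4 with library size only, 1 with DESeq2 and 0 to 1 without 1 library (1 without NCD metformin 4). Of all genes, DESeq2 called 458 for HFD averaged, and the fits without 1 library called 28 to 180. The counts of 0 for metformin on HFD, HFD on control treatment and the interaction stayed at 0 in every alternative run. Library size only shifted the median of all genes for HFD averaged over treatments to -0.17, and 1595 of all genes were then called, against 117. Over alternatives, all genes called ranged from 180 to 1795 for metformin on NCD, 1 to 179 for metformin on HFD, 2 to 71 for HFD on control treatment, 3 to 774 for HFD with metformin, 0 to 23 for the interaction, 711 to 1949 for metformin averaged and 28 to 1595 for HFD averaged.

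Some uncalled fold changes turned round. In counts rebuilt from TPM, Oas3 had 0.38 for HFD on control treatment and 0.60 averaged, against -1.43 and -1.04. For HFD on control treatment, leaving out 1 library gave Irgm1 values from -0.36 (without HFD control 2) to 0.018 (without NCD control 3), against -0.22. It gave Mx2 values from -0.71 to 0.13 in the fits without those same libraries, against -0.47. The causes were not tested. Oas3 was at low counts, and its transcript ENSMUST00000165820.1 was listed at 0.317 TPM in HFD control 4 and at 0 in the other HFD control libraries. Its transcript ENSMUST00000044833.8 averaged 0.008 TPM in HFD control and 0.035 TPM in NCD control libraries. The libraries left out had the highest Irgm1 and Mx2 values of their groups. Low counts limit several members, among them all IFIT and OAS genes listed, with 97 (Oas3) to 1115 counts (Ifit3) over all libraries. A mean under 1 TPM is not the same as a low count, as Parp14 had 0.37 TPM and 2467 counts.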
